A study of Mus musculus with 9 samples.

Results

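The 33 genes described here are Nfe2l2, which encodes the transcription factor NRF2, its inhibitor Keap1, and enzymes and carriers that make or use glutathione, thioredoxin, NADPH, peroxidases, superoxide dismutases and ferritin. They were chosen by name and not by a cut on their measured values, though earlier results of these data were known. All 33 were measured, out of 15346 named genes and 21964 features in all (a feature is 1 gene, or 1 probe without a gene name). The RNA came from colonic mucosa labelled as normal, of outbred ICR mice, and was hybridised in 1 colour to 9 Agilent mouse arrays in 3 groups of 3. Every mouse had weekly injections under the skin of 20 mg/kg 1,2-dimethylhydrazine (DMH), a carcinogen that causes colon tumors in rodents, over 20 weeks, so no group was free of the carcinogen. The butyrate groups, one of mice with tumors and one of mice without tumors, also drank 1.5% butyrate in their water, and the mice of the DMH group drank plain water. Butyrate is a short-chain fatty acid made by gut bacteria that colonocytes burn as fuel and that inhibits histone deacetylases. Ages and sexes are not given in the sources used here. The titles, descriptions and source names give the tumor status used here, but the characteristics field on tumor status contradicts them in each of the 6 butyrate samples. Were that field correct, the butyrate groups would swap names, their changes against DMH with them, and the sign of each difference between them would turn.

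NRF2 is held in the cytoplasm and sent for degradation by KEAP1, until oxidants or electrophiles modify cysteines of KEAP1. NRF2 then enters the nucleus, pairs with small MAF proteins and binds antioxidant response elements, among whose best known targets are Nqo1, Gclc, Gclm, Srxn1, Txnrd1, Slc7a11 and Hmox1. In the colon these enzymes dispose of peroxides and reactive chemicals from food, microbes and inflammatory cells, and mice that lack Nfe2l2 are known to be more prone to chemically induced colitis and colon tumors.

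Levels are log2 of the background-subtracted intensity minus the 75th percentile of the same array, so a level of 0 is that percentile, and levels of different genes are not comparable because each probe binds with its own strength. The intensity at the 75th percentile ran from 188 to 880 between arrays, the share of spots well above background from 57.8% to 72.5%, and 0 spots were saturated. All 33 genes were well above background on all 9 arrays, which held for 78.1% of all features. Slides 3 and 4 held the DMH arrays alone, with a scan day of their own, and slides 1 and 2 those of both butyrate groups. Slide and scan day therefore cannot be told apart from butyrate. Array 1 of the mice with tumors shared slide 1 with the 3 arrays of the mice without tumors, and arrays 2 and 3 with tumors shared slide 2. The labels do not say that samples are separate animals, so p-values measure the spread between these samples, which may in part be technical, and with 3 arrays a group the precision is limited. Across the 33 genes the median SD within a group was 0.26 with tumors, 0.32 without tumors and 0.08 in DMH, against 0.38, 0.27 and 0.12 over all features.

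**Figure D1:**
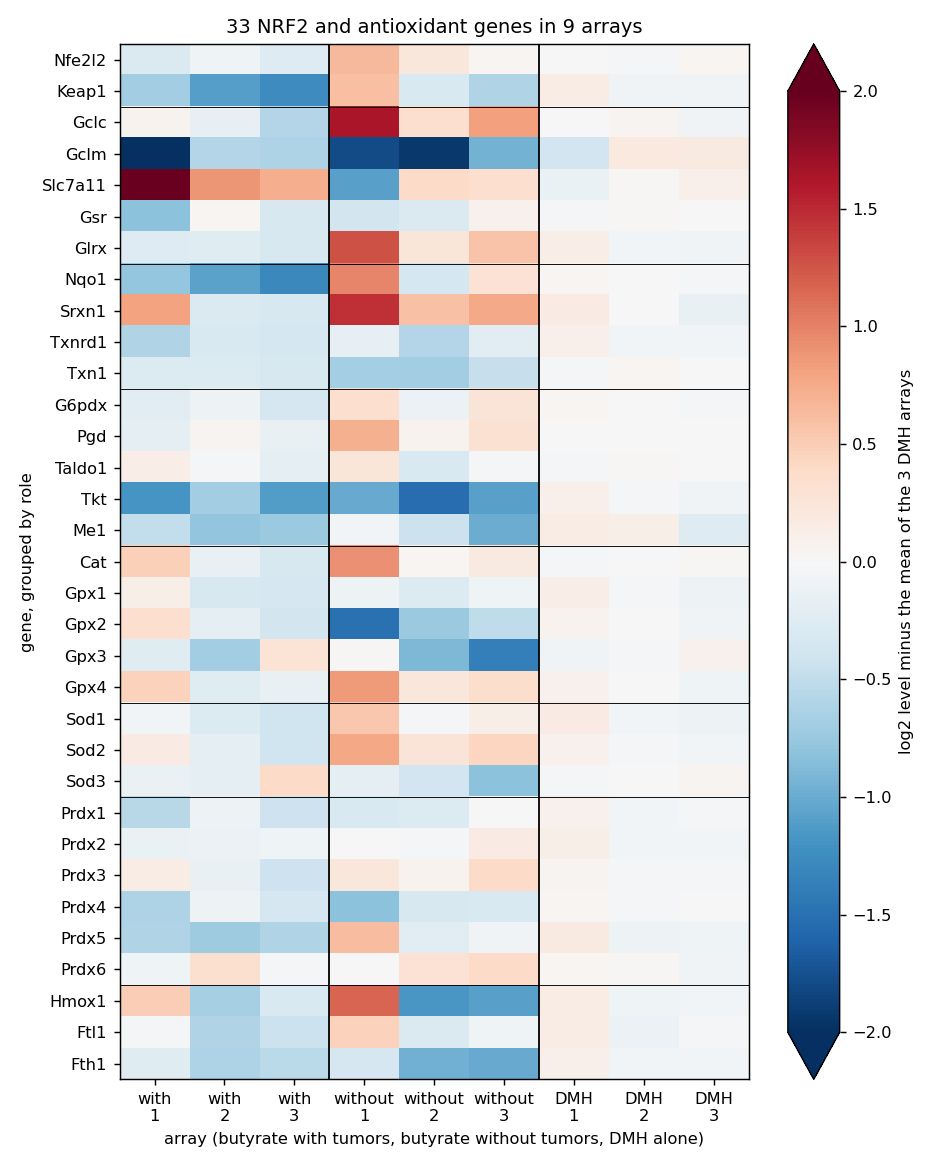
Each row is 1 of the 33 genes, grouped by role, and each column 1 array; colour is the log2 level minus the mean of the 3 DMH arrays. The DMH arrays are nearly even, array 1 without tumors is the highest of the 9 for 16 genes, and array 3 with tumors the lowest for 11.

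Array 1 of the mice without tumors held the highest value of the 9 arrays for 16 of the 33 genes, against 21.2% of all features. Array 3 of the mice with tumors held the lowest value for 11 and array 1 with tumors for 8, against 12.8% and 16% of all features. None of the DMH arrays held the lowest value for any of the 33, against 9.09%, 8.51% and 12.7% of all features for DMH arrays 1, 2 and 3.

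With both butyrate groups pooled against DMH, 1 of the 33 genes changed. Tkt, the transketolase of the pentose phosphate pathway, fell, and 0 of the 33 rose at an adjusted p under 0.05 (limma's moderated test, with the Benjamini-Hochberg adjustment made across the 21964 features). Of all features 9.2% passed the same test, 5.85% higher and 3.35% lower, and 7 of the 33 had an unadjusted p under 0.05, against 31.2% of all features. Over the 33 the median log2 change was -0.17, against 0.08 over all features. The butyrate and DMH arrays did not overlap for 6 of the 33, all lower, against 11.9% of all features lower, 14.5% higher and 26.3% in either direction. Tkt kept its call when any 1 butyrate array was left out, but the count was 0 when any 1 DMH array was left out, and it was 2 without array 2 or without array 3 with tumors, where Gclm fell too.

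Against DMH, the mice without tumors had 5 lower genes of the 33 and 0 higher ones. These were Tkt, thioredoxin Txn1, the ferritin heavy chain Fth1, the gut glutathione peroxidase Gpx2 and Gclm, the modifier subunit of the enzyme that starts glutathione synthesis. That is 15.2% of the 33, against 30.5% of all features called in either direction, 16.6% higher and 13.8% lower, and 10 of the 33 had an unadjusted p under 0.05, against 44.5% of all features. The median log2 change was -0.03 for the 33 and 0.08 for all features. In 9 genes all 3 arrays lay above DMH and in 8 all lay below, in all 51.5% of the 33, against 60% of all features, 32.8% above and 27.2% below. Leaving out array 1 with tumors gave a count of 8, leaving out array 2 without tumors gave 3, and leaving out DMH array 1, 2 or 3 gave 2, 1 and 1. Of the 8 genes 3 were higher, and of the 3 genes 2 were higher.

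Mice with tumors had 1 gene called against DMH, again Tkt and again lower, which is 3.03% of the 33 against 5.7% of all features called in either direction, 3.44% higher and 2.26% lower. At an unadjusted p under 0.05 there were 8, against 29.9% of all features. The median log2 change was -0.22 for the 33 and 0.08 for all features, and 27 of the 33 were negative, against 44.3% of all features. In 15 genes all 3 arrays with tumors lay below the 3 DMH arrays and in 1 they lay above, against 19.5% and 23.1% of all features and 42.6% in either direction. The count of 1 was 4 without array 1 without tumors, which enters this comparison only through the shared estimate of spread, and it was 0 when array 2 or 3 of the mice without tumors, array 1 or 3 of those with tumors, or any 1 DMH array was left out. All 3 comparisons with DMH share its 3 arrays.

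Between the butyrate groups, mice with tumors against mice without, 3 of the 33 fell and 0 rose. These were Nqo1, a quinone reductase, Gclc, the catalytic subunit whose partner is Gclm, and Glrx, glutaredoxin. They make 9.09% of the 33, against 13.5% of all features called in either direction, 6.99% higher and 6.56% lower, and 13 of the 33 had an unadjusted p under 0.05, against 34.6% of all features. The median log2 change was -0.17 for the 33 and 0.01 for all features. The groups did not overlap for 14 of the 33, 10 of them lower and 4 higher, against 33.4% of all features in either direction, 16.6% lower and 16.8% higher. Leaving out array 1 with tumors gave a count of 8. It was 0 when array 1 or 3 of the mice without tumors, array 2 or 3 of those with tumors, or any 1 DMH array was left out.

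**Figure D2:**
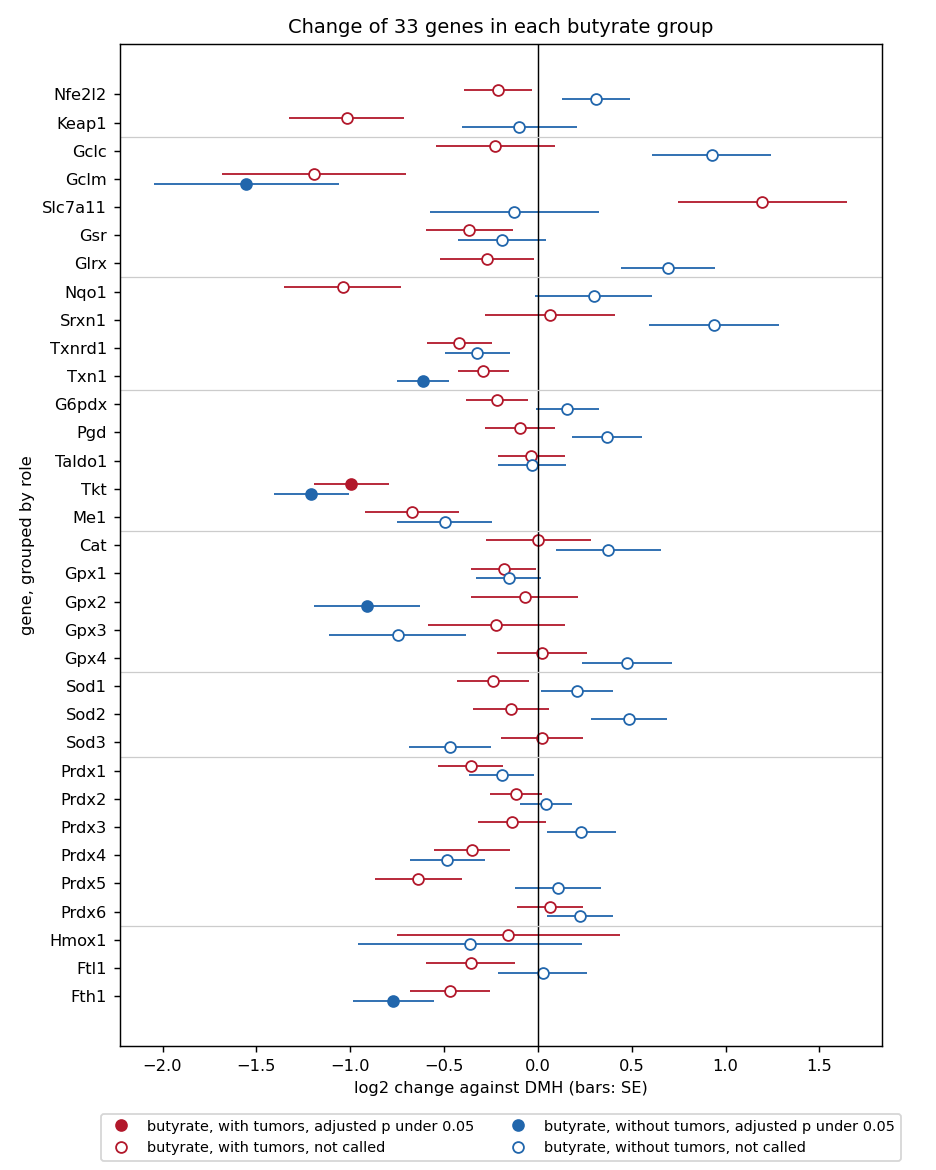
Points are log2 changes against DMH of the 33 genes, grouped by role, for mice with tumors (red) and without tumors (blue), with SE as bars and filled points for an adjusted p under 0.05 (limma). The filled points all lie left of 0, and Tkt is the gene filled in both colours.

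Nfe2l2 (chr2:75675513-75704663, GRCm38.p6) had log2 levels of 3.71, 3.91 and 3.75 in mice with tumors, 4.65, 4.23 and 4.05 in mice without tumors, and 3.99, 3.98 and 4.04 in DMH mice. The 3 arrays with tumors lay below the other 6 and the 3 without tumors above DMH, though the lowest of them was close to the highest DMH array. None of the 4 comparisons passed the test: the log2 change was -0.21 ± 0.18 (SE) with tumors and 0.31 ± 0.18 without tumors against DMH (limma adjusted p = 0.454 and 0.219), 0.05 ± 0.22 for both together (0.901), and -0.52 ± 0.18 with tumors against without (0.0863). Nfe2l2 and Glrx were the 2 genes of the 33 in the order without tumors, DMH, with tumors with no overlap between neighbours, an order that 1.53% of all features had, and 0 of the 33 had the opposite order, against 0.801%.

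A further probe of Nfe2l2, A_52_P396436, gave levels of 2.03, 3.19 and 3.03 with tumors, 2.39, 2.34 and 2.81 without tumors, and 3.36, 3.53 and 3.51 in DMH. All 6 butyrate arrays lay below DMH on it. Without tumors against DMH it gave a log2 change of -0.96 ± 0.30 (limma adjusted p over all probes 0.0435), opposite in sign to the brighter probe, A_51_P411271, used above, so these arrays settle no direction for Nfe2l2.

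Keap1 (chr9:21229730-21239332), the adaptor that feeds NRF2 to a ubiquitin ligase, had levels of 0.93, 0.52 and 0.36 with tumors, 2.22, 1.32 and 1.03 without tumors, and 1.77, 1.55 and 1.55 in DMH. The arrays with tumors were the 3 lowest, and those without tumors spread on both sides of DMH. The log2 change was -1.02 ± 0.31 with tumors against DMH (limma adjusted p = 0.0768), -0.92 ± 0.31 with tumors against without (0.0761), -0.10 ± 0.31 without tumors against DMH (0.824) and -0.56 ± 0.37 for both together (0.323). With tumors it passed the test against DMH without array 1 without tumors, without slide 1, and with normexp, the authors' values or array weights. Between the butyrate groups it passed without array 1 with tumors, and with the authors' values, array weights or the replicate number as a block.

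The letters TGACNNNGC, the core of the antioxidant response element, were searched on both strands in 300-base windows, from 250 bases before to 50 after a start site, of a RefSeq table (GRCm38.p6) that held 28 of the 33 genes. The 28 have 37 windows, 6 genes more than 1, and the start site is the outer end of the gene in 25 of the 37 and lies inside the gene in the other 12. Counting a gene if any of its windows held them, the letters occurred in 9 of the 28, or 32.1%, against 14% of 27025 genes with such a window: G6pdx, Gclm, Me1, Nfe2l2, Pgd, Prdx1, Sod1, Srxn1 and Txnrd1. The AP-1 letters TGACTCA or TGAGTCA, which can overlap the core, occurred in 4 of the 28, against 5.95% of all genes, and overlapped it in Me1 and Prdx1. Of the called genes with a window, Gclm is the one in which it holds the core, which is why it is shown, and the windows of Nfe2l2 itself and of Prdx1, where the core overlaps AP-1, were added after the values were seen. Each is written along the strand of its gene, with the core in capitals. The core reads TGACTCCGC in Nfe2l2, 240 bases before the start site of the window. It lies on the opposite strand in Gclm (TGACGGTGC, 134 bases before the start site) and Prdx1 (TGACTCAGC, 133 bases before), so the capitals there are its reverse complement. In Gclm that start site lies 70 bases inside the gene span of the same RefSeq build, and in Nfe2l2 and Prdx1 it is the outer end of the gene. Of the other genes with a match, the window that holds it starts inside the gene in Pgd, by 623 bases, and in Txnrd1, by 25255 bases. A match is a description of letters and not a measured binding site.
Gclm, chr3:122245307-122245606, plus strand: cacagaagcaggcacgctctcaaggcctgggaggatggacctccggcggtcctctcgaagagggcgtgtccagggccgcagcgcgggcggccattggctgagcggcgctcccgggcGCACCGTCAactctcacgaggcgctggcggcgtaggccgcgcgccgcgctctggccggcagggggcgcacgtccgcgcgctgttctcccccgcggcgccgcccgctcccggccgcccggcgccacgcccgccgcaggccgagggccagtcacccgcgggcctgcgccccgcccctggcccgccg
Nfe2l2, chr2:75704614-75704913, minus strand: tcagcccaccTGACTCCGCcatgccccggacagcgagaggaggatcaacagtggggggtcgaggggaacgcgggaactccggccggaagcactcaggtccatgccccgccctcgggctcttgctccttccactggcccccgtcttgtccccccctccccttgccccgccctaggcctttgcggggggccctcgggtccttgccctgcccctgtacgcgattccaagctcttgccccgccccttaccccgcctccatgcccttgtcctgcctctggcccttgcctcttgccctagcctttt
Prdx1, chr4:116685349-116685648, plus strand: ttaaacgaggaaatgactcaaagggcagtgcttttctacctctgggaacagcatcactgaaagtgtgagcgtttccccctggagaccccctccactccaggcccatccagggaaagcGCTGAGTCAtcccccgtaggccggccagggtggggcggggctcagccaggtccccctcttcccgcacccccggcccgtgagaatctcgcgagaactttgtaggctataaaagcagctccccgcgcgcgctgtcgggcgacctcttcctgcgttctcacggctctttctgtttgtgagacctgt

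Among the 5 genes of glutathione synthesis and recycling, 1 fell without tumors against DMH and 2 fell with tumors against without, while 0 were called in the other comparisons with DMH. Of all features, 13.8% were lower without tumors, 2.26% with tumors and 3.35% with both groups together against DMH. With tumors against without, 6.56% were lower. These shares stand beside the counts of the roles below too. Gclm (chr3:122245487-122267215) had levels of -2.05, -0.27 and -0.30 with tumors, -1.47, -1.61 and -0.64 without tumors, and -0.06, 0.51 and 0.50 in DMH. All 6 butyrate arrays lay below the 3 DMH arrays, and array 1 with tumors was the lowest. The arrays of slide 1 all lay below those of the other slides, at -2.05 to -0.64 against -0.30 to 0.51, whatever their tumor status. Without tumors it fell against DMH by 1.55 ± 0.49 on the log2 scale, 2.93-fold (limma adjusted p = 0.0437), and the change was -1.19 ± 0.49 with tumors (0.148) and -1.37 ± 0.42 for both together (0.0659). Its call without tumors was lost without array 1 or 2 of that group or any 1 DMH array (adjusted p 0.0659 to 0.123) and with slide as a random block (0.313).

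Gclc (chr9:77754535-77794489), which joins glutamate and cysteine in the first step of glutathione synthesis, had levels of 2.15, 1.92 and 1.49 with tumors, 3.70, 2.41 and 2.89 without tumors, and 2.09, 2.13 and 2.01 in DMH. The arrays without tumors were the 3 highest, and those with tumors spanned DMH. It fell with tumors against without by 1.15 ± 0.32 on the log2 scale, 2.22-fold (limma adjusted p = 0.048), and the change against DMH was -0.23 ± 0.32 with tumors (0.656) and 0.93 ± 0.32 without tumors (0.057). Thus the 2 subunits of 1 enzyme had opposite signs without tumors, Gclc above DMH and Gclm below it on every array. The arrays without tumors were all on slide 1, whose array with tumors was also low for Gclm (-2.05). The part of the slide in this contrast was not tested.

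Glrx (chr13:75839885-75850151), which takes glutathione off proteins, had levels of 2.70, 2.71 and 2.65 with tumors, 4.24, 3.20 and 3.52 without tumors, and 3.09, 2.90 and 2.88 in DMH. The 3 groups did not overlap, and the arrays with tumors lay within an SD of 0.04 of each other. It fell with tumors against without by 0.97 ± 0.25 on the log2 scale, 1.95-fold (limma adjusted p = 0.0417), with changes against DMH of -0.27 ± 0.25 with tumors (0.492) and 0.69 ± 0.25 without tumors (0.0667).

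Slc7a11, the cystine carrier that brings in the cysteine for glutathione, was the member with the widest spread of arrays, from -4.62 to -1.55. Its levels were -1.55, -2.65 and -2.80 with tumors, -4.62, -3.14 and -3.20 without tumors, and -3.66, -3.50 and -3.42 in DMH. The arrays with tumors were the 3 highest, and array 1 of each butyrate group stood at an end of the range. The log2 change was 1.20 ± 0.45 with tumors against DMH (limma adjusted p = 0.123), -0.13 ± 0.45 without tumors (0.85) and 1.32 ± 0.45 with tumors against without (0.0816), and a further probe gave 1.58 ± 0.41 with tumors against DMH (0.0581). Gsr, which returns oxidised glutathione to its reduced form, ran from 2.29 to 3.14 with tumors, 2.74 to 3.19 without tumors and 3.08 to 3.13 in DMH, so the groups overlapped.

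Of the 4 genes of thioredoxin and quinone reduction, 1 fell without tumors against DMH and 1 fell with tumors against without. In these comparisons 13.8% and 6.56% of all features were lower. Nqo1 (chr8:107388225-107403205), which reduces quinones and is a standard readout of NRF2, had levels of 0.74, 0.45 and 0.23 with tumors, 2.48, 1.15 and 1.79 without tumors, and 1.56, 1.51 and 1.47 in DMH. All 3 arrays with tumors lay below the other 6, and the arrays without tumors lay on both sides of DMH. With tumors against without it fell by 1.34 ± 0.31 on the log2 scale, 2.53-fold (limma adjusted p = 0.0321), and the change against DMH was -1.04 ± 0.31 with tumors (0.0767), 0.30 ± 0.31 without tumors (0.484) and -0.37 ± 0.46 for both together (0.607). With tumors against DMH it passed the test without array 1 without tumors, without slide 1, and with the authors' values or array weights.

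On slide 1, which holds array 1 with tumors and the 3 without tumors, the log2 difference was -1.07 for Nqo1, -0.86 for Gclc and -0.95 for Glrx. These values have 1 array with tumors, and 0 of all features were called on slide 1 alone, so no test is drawn from them. With slide as a block in the limma fit of all arrays the adjusted p was 0.19, 0.285 and 0.16. The calls of these 3 genes were kept when array 1 with tumors or array 2 without tumors was left out. They were lost without any 1 of the other 7 arrays, DMH arrays included, which enter only through the shared spread (adjusted p 0.0509 to 0.154). With quantile normalization Gclc, at -0.98, and Glrx, at -0.77, lost their calls (limma adjusted p = 0.0573 and 0.0583), and Nqo1 kept its call (0.035). With normexp background correction besides, Glrx was not called (0.0781), and Gclc and Nqo1 were (0.0397 and 0.0272).

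Txn1 (chr4:57943373-57956411), the cytosolic thioredoxin that reduces peroxiredoxins, had levels of 6.24, 6.23 and 6.18 with tumors, 5.83, 5.81 and 6.05 without tumors, and 6.48, 6.54 and 6.50 in DMH. The 3 groups did not overlap, with DMH highest and the mice without tumors lowest. It fell without tumors against DMH by 0.61 ± 0.14 on the log2 scale, 1.53-fold (limma adjusted p = 0.0144), with -0.29 ± 0.14 with tumors (0.196) and 0.32 ± 0.14 with tumors against without (0.138). The call was lost without array 2 without tumors and without DMH array 2 or 3 (0.0534 to 0.065), and with slide as a random block (0.101). It was also lost with quantile normalization, at -0.33 (limma adjusted p = 0.156), and with normexp background correction besides, at -0.14 (0.363).

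Txnrd1, the reductase that recharges thioredoxin, had levels of 4.35 to 4.66 with tumors, 4.38 to 4.79 without tumors and 4.90 to 5.07 in DMH. All 6 butyrate arrays lay below DMH, with a log2 change of -0.37 ± 0.16 for both together (limma adjusted p = 0.157). Srxn1, the sulfiredoxin that repairs overoxidised peroxiredoxins, had 4.47, 3.38 and 3.34 with tumors, 5.13, 4.26 and 4.43 without tumors, and 3.83, 3.65 and 3.52 in DMH. Its arrays without tumors all lay above DMH, with a log2 change of 0.94 ± 0.35 (0.0698), while its 2 dimmer probes gave 0.02 and -0.11 in the same comparison.

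**Figure D3:**
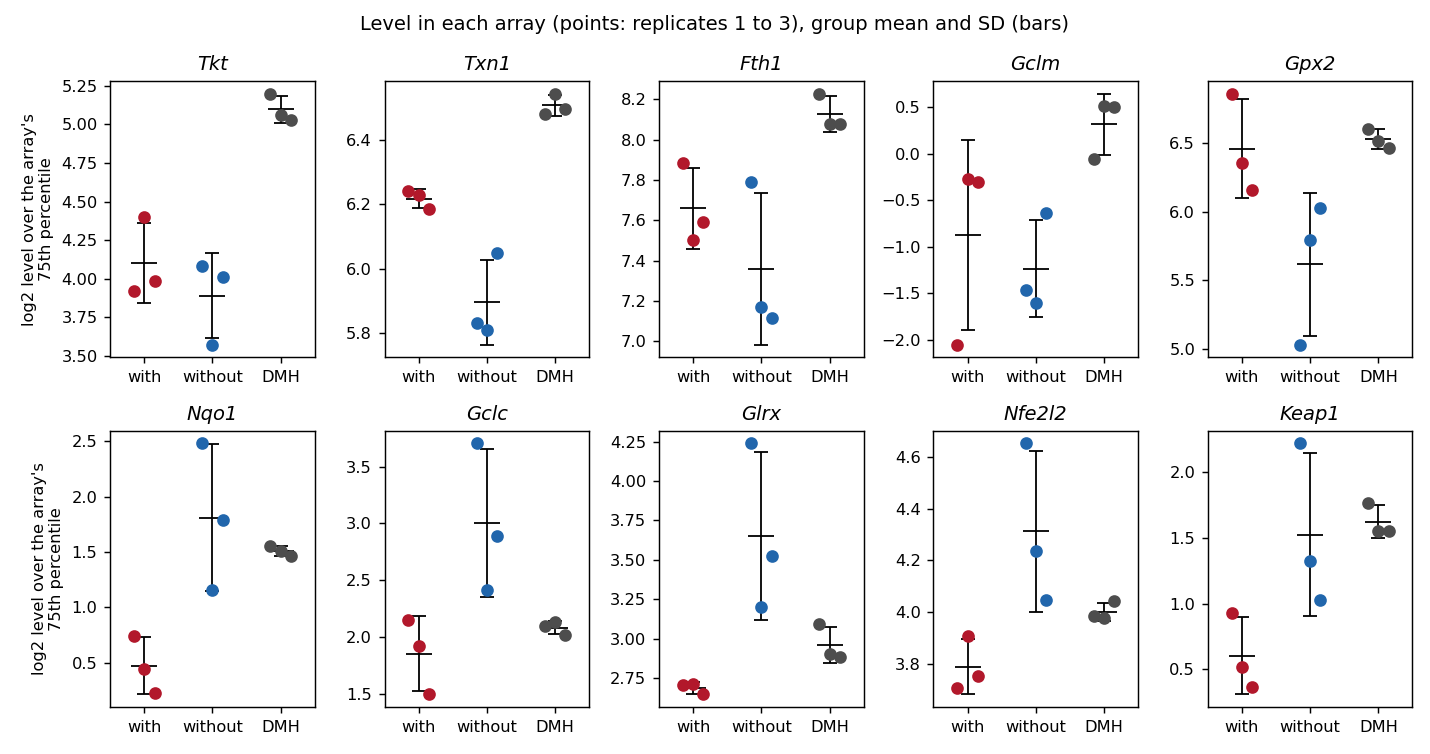
Each panel shows the log2 level of 1 gene in the 9 arrays (points, replicates 1 to 3 from left to right), with group mean and SD as bars, for mice with tumors, mice without tumors and DMH. In the upper row DMH is highest for Tkt, Txn1, Fth1 and Gclm, and in the lower row Nqo1, Gclc, Glrx, Nfe2l2 and Keap1 are lowest with tumors on average.

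Of the 5 enzymes of NADPH supply, which feeds both glutathione and thioredoxin reduction, Tkt fell in each comparison with DMH and the other 4 were called in none. Tkt (chr14:30549131-30574724), which links the pentose phosphate pathway with glycolysis, had levels of 3.92, 4.40 and 3.99 with tumors, 4.08, 3.57 and 4.01 without tumors, and 5.20, 5.06 and 5.03 in DMH. All 6 butyrate arrays lay below all 3 DMH arrays and the butyrate groups overlapped. It fell by 1.1 ± 0.19 on the log2 scale, 2.14-fold, for both groups together (limma adjusted p = 0.0232), by 0.99 ± 0.20 with tumors (0.0385) and by 1.21 ± 0.20 without tumors (0.00534), and the butyrate groups differed by 0.21 ± 0.20 (0.467). With slide as a random block the adjusted p was 0.108, 0.144 and 0.0609, and none of these calls was kept. Without tumors the call was kept without each of the 9 arrays in turn, while with tumors it was lost without 7 of the 9, all but array 1 without tumors and array 2 with tumors (0.0508 to 0.14).

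The call of Tkt rests on 1 of its 2 probes, the brighter A_51_P394515. The other, A_52_P624447, ran from -3.64 to -3.53 with tumors, -3.57 to -3.04 without tumors and -3.72 to -3.57 in DMH, well above background on all 9 arrays. It gave log2 changes of 0.04 ± 0.18 with tumors (limma adjusted p over all probes 0.898) and 0.39 ± 0.18 without tumors (0.123), of opposite sign. With the probes averaged, Tkt was no longer called in any comparison.

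G6pdx, the first enzyme of the pentose phosphate pathway, ran from 3.15 to 3.38 with tumors, 3.36 to 3.82 without tumors and 3.44 to 3.51 in DMH. Pgd, which makes NADPH at the next oxidation, ran from 3.61 to 3.84 with tumors, 3.86 to 4.50 without tumors and 3.78 to 3.80 in DMH. With tumors G6pdx lay below DMH on all 3 arrays and Pgd spanned it, and neither change passed the test (limma adjusted p = 0.403 and 0.76). Taldo1, transaldolase, had a log2 change of -0.04 ± 0.18 with tumors and -0.03 ± 0.18 without tumors (0.912 and 0.906). Me1, the cytosolic malic enzyme, changed by -0.67 ± 0.25 with tumors (0.123) and -0.50 ± 0.25 without tumors (0.162), and its 3 arrays with tumors lay below DMH.

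Catalase and the glutathione peroxidases included 1 gene that fell, Gpx2 without tumors against DMH. Gpx2 (chr12:76792335-76795554), the selenoenzyme of the gut epithelium, had levels of 6.86, 6.35 and 6.16 with tumors, 5.03, 5.79 and 6.03 without tumors, and 6.60, 6.52 and 6.46 in DMH. The arrays without tumors were the 3 lowest, with array 1 far below the other 2, and those with tumors spanned DMH. It fell without tumors by 0.91 ± 0.28 on the log2 scale, 1.88-fold (limma adjusted p = 0.0415), against -0.07 ± 0.28 with tumors (0.888), -0.49 ± 0.34 for both together (0.348) and 0.84 ± 0.28 with tumors against without (0.0798). Without array 1 of the mice without tumors the change was -0.62 (0.0942), and the call was also lost without array 2 of that group, array 2 with tumors or any 1 DMH array (0.0545 to 0.107), and with slide as a random block (0.15). Quantile normalization gave -0.67 without tumors (limma adjusted p = 0.134), and with normexp background correction besides -0.63 (0.0965), neither called.

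Gpx1, the cytosolic peroxidase, stayed between 5.83 and 6.29 on all arrays, and its groups overlapped in every comparison. Gpx3, the plasma peroxidase, ran from 0.78 to 1.74 with tumors, 0.11 to 1.50 without tumors and 1.40 to 1.57 in DMH, with a log2 change of -0.75 ± 0.36 without tumors (limma adjusted p = 0.147). Gpx4, which reduces lipid peroxides in membranes, ran from 4.04 to 4.73 with tumors, 4.50 to 5.13 without tumors and 4.19 to 4.36 in DMH, and changed by 0.47 ± 0.24 without tumors (0.16). Cat, the peroxisomal catalase, ran from 1.18 to 1.98 with tumors, 1.55 to 2.41 without tumors and 1.49 to 1.53 in DMH. For Gpx4 and Cat the arrays without tumors all lay above DMH and array 1 was the highest of the 9.

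None of the 3 superoxide dismutases was called (limma), and 2 of them had an unadjusted p under 0.05 with tumors against without, against 34.6% of all features. Sod1, the cytosolic enzyme, had 6.46, 6.25 and 6.12 with tumors, 7.05, 6.49 and 6.63 without tumors, and 6.67, 6.46 and 6.42 in DMH. Sod2, the mitochondrial enzyme, had 4.06, 3.70 and 3.48 with tumors, 4.67, 4.14 and 4.32 without tumors, and 3.97, 3.86 and 3.84 in DMH. Both were below the mice without tumors on every array with tumors, by a mean of -0.45 ± 0.19 for Sod1 and -0.63 ± 0.20 for Sod2 (adjusted p = 0.14 and 0.0723). Sod3, the extracellular enzyme, ran the other way, from -3.53 to -2.95 with tumors and -4.16 to -3.54 without tumors, against -3.38 to -3.29 in DMH, a difference between the butyrate groups of 0.49 ± 0.22 (0.152).

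Peroxiredoxins, which reduce peroxides with electrons from thioredoxin, had 0 of 6 genes called in each comparison (limma), and 1 of the 6 had an unadjusted p under 0.05 in each, against 29.9% to 44.5% of all features. Prdx1, the cytosolic peroxiredoxin often counted as an NRF2 target, had 4.69, 5.13 and 4.83 with tumors, 4.94, 4.96 and 5.25 without tumors, and 5.33, 5.19 and 5.21 in DMH. Only array 3 without tumors reached the range of DMH. The log2 change was -0.36 ± 0.17 with tumors (limma adjusted p = 0.201), -0.19 ± 0.17 without tumors (0.416), -0.27 ± 0.17 for both together (0.291) and -0.17 ± 0.17 with tumors against without (0.515).

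Prdx5, found in mitochondria, peroxisomes and cytosol, had 3.01, 2.92 and 3.02 with tumors, 4.25, 3.39 and 3.55 without tumors, and 3.81, 3.53 and 3.53 in DMH. Its arrays with tumors were the 3 lowest, with a log2 change of -0.64 ± 0.23 against DMH (limma adjusted p = 0.114) and -0.75 ± 0.23 against the mice without tumors (0.0642). Prdx4, the peroxiredoxin of the endoplasmic reticulum, ran from 1.38 to 1.91 with tumors, 1.19 to 1.70 without tumors and 1.98 to 2.04 in DMH. All 6 butyrate arrays of Prdx4 lay below DMH, with a change of -0.42 ± 0.19 for both together (0.16). On the probes used, log2 changes against DMH lay between -0.14 and 0.23 in both butyrate groups for Prdx2, Prdx6 and the mitochondrial Prdx3. Other probes of Prdx2 and Prdx6 changed more without tumors, as given below.

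Of the genes of heme and iron, Fth1 fell without tumors against DMH. Fth1 (chr19:9980600-9985111), the ferritin heavy chain that oxidises and stores iron, had levels of 7.89, 7.5 and 7.59 with tumors, 7.79, 7.17 and 7.11 without tumors, and 8.23, 8.08 and 8.08 in DMH. All 6 butyrate arrays lay below DMH. The log2 change was -0.77 ± 0.21 without tumors, 1.71-fold lower (limma adjusted p = 0.0287), -0.47 ± 0.21 with tumors (0.183) and -0.62 ± 0.21 for both together (0.0853). Its call was lost without array 2 or 3 without tumors or any 1 DMH array (0.0795 to 0.0922), and with slide as a random block (0.132). It was also lost with quantile normalization, at -0.27 (limma adjusted p = 0.157), and with normexp background correction besides, at -0.35 (0.129). Ftl1, the light chain, ran from 5.75 to 6.31 with tumors, 6.06 to 6.81 without tumors and 6.24 to 6.51 in DMH, with no call. Ferritin genes have near-identical copies in the mouse genome, and whether the probes also bind those was not tested.

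Hmox1, the heme oxygenase that releases iron from heme, had levels of 1.60, 0.44 and 0.80 with tumors, 2.27, -0.07 and 0.01 without tumors, and 1.24, 1.02 and 1.04 in DMH. Array 1 without tumors was the highest of the 9 and arrays 2 and 3 of the same group the lowest, an SD of 1.33, the largest of the 33. The log2 change was -0.16 ± 0.59 with tumors (limma adjusted p = 0.88), -0.36 ± 0.59 without tumors (0.663), -0.26 ± 0.49 for both together (0.747) and 0.20 ± 0.59 with tumors against without (0.83). Without array 1 without tumors, Hmox1 was lower without tumors than in DMH by -1.13 on the log2 scale, and it then passed the test. That array also stood apart in the 4 measured erythrocyte genes, whose median lay at 0.56 above DMH against -2.52 to -1.15 in the other butyrate arrays, and in the 5 measured adipocyte genes, at 0.90 against -3.96 to -2.24. Among the 4 erythrocyte genes Slc4a1, an anion exchanger, ran the other way, and it rose with tumors against DMH by 1.32 ± 0.24 (limma adjusted p = 0.0324). The part of these genes in the level of Hmox1 was not tested.

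**Figure D4:**
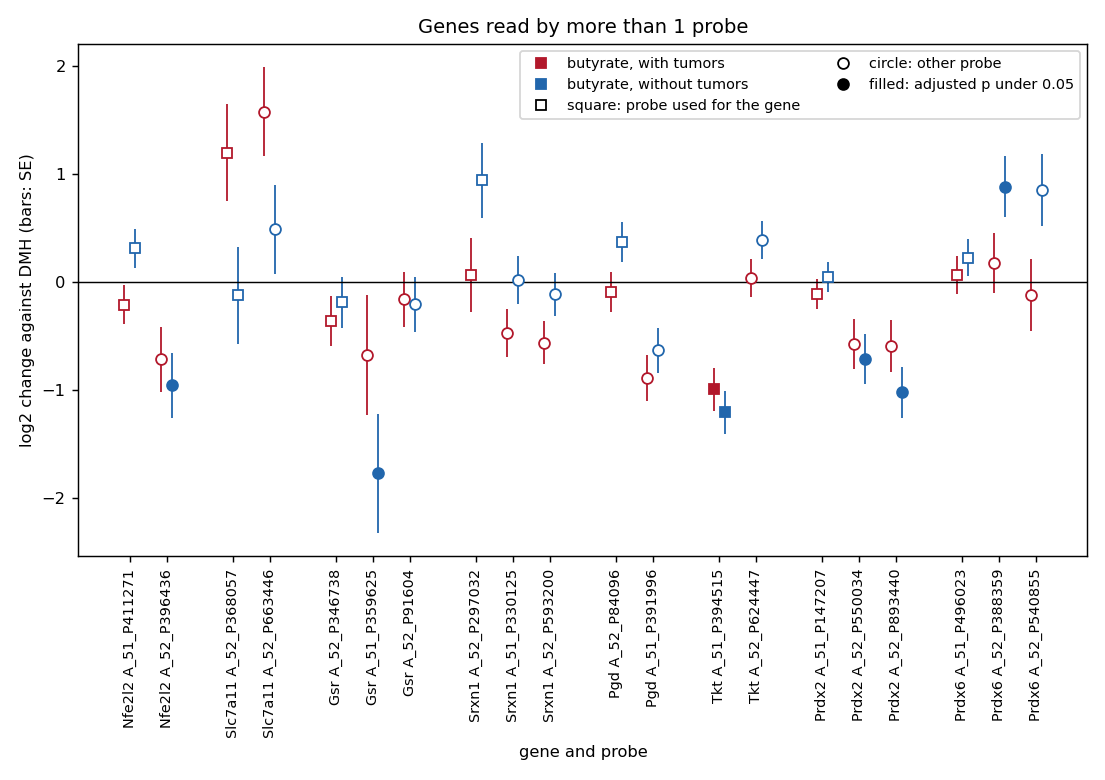
Log2 changes against DMH (bars: SE) of each probe of the 8 genes with several usable probes, for mice with tumors (red) and without tumors (blue); squares are the probes used for the gene and filled symbols have an adjusted p under 0.05 over all probes (limma). Probes of Tkt, Gsr, Nfe2l2, Prdx2, Srxn1 and Pgd lie furthest from the probe used for the gene, without tumors, and those of Prdx6 and Slc7a11 lie apart by less.

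The 33 genes had 46 probes, 45 of which passed the filters, and 8 genes had more than 1 that did. In 6 of the 8, Nfe2l2, Gsr, Pgd, Tkt, Prdx2 and Prdx6, one probe was called and another was not in at least 1 comparison with DMH. Gsr probe A_51_P359625 gave -1.77 ± 0.55 without tumors (limma adjusted p over all probes 0.0418), against -0.19 ± 0.23 for the probe used, A_52_P346738. Pgd probe A_51_P391996 gave -0.76 ± 0.20 for both groups together (0.0479), against 0.14 ± 0.21 for A_52_P84096. Prdx2 probes A_52_P550034 and A_52_P893440 gave -0.72 ± 0.23 and -1.02 ± 0.24 without tumors (0.0466 and 0.0162), against 0.04 ± 0.14 for A_51_P147207. Prdx6 probe A_52_P388359 gave 0.88 ± 0.28 without tumors (0.0442), against 0.22 ± 0.17 for A_51_P496023.

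Several of the probes that differ followed the slide. On Gsr probe A_51_P359625 the 4 arrays of slide 1 ran from 0.76 to 2.14 and the other 5 arrays from 3.17 to 3.52. On Nfe2l2 probe A_52_P396436 they ran from 2.03 to 2.81 against 3.03 to 3.53, and on Prdx2 probe A_52_P893440 from 1.50 to 2.09 against 2.42 to 2.90. In each of these 3 the arrays of slide 1 were the 4 lowest, array 1 with tumors among them. Why the probes differ was not tested.

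Genes around the 33 were counted on lists of the same pathways, beside which stand the shares of all features called, 5.7% with tumors and 30.5% without tumors against DMH and 13.5% with tumors against without. Of 15 regulators and partners of NRF2, 3 rose and 2 fell without tumors against DMH (limma), which at 33.3% is near the 30.5% of all features. Rbx1, a part of the KEAP1 ubiquitin ligase, rose by 0.96, Maff, a small MAF partner, by 0.71 and Dpp3, which binds KEAP1, by 0.59 on the log2 scale. Nfe2l1, a relative of NRF2, fell by 1.11 and Btrc, a further adaptor for NRF2 degradation, fell by 0.64 (adjusted p of the 5 from 0.0133 to 0.0468). With tumors 0 of the 15 were called, against DMH or against the mice without tumors, with 2 at an unadjusted p under 0.05 in each (29.9% and 34.6% of all features), and Btrc fell by 0.62 in both groups together (0.0408).

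Of 28 further NRF2 target genes 25 were measured, and with tumors against without 5 fell and 1 rose, in all 24%, against 6.56% of all features lower and 6.99% higher. The log2 change was -2.12 ± 0.34 for Ugdh, which makes the sugar donor of glucuronidation, -1.30 ± 0.24 for Mgst1, a membrane glutathione transferase, and -1.0 ± 0.19 for Gstm3, a cytosolic one (limma adjusted p = 0.0143, 0.0193 and 0.0213). It was -1.14 ± 0.27 for Abcc3, an efflux pump, and -0.80 ± 0.19 for Akr1b8, an aldose reductase (0.0326 and 0.0321). Abcc2, another efflux pump, was at least 3.36-fold higher with tumors (0.0446), where 2 of 3 arrays were well above background, against 0 of 3 without tumors. The bound takes the lowest signal well above background on an array as the level of the dim group. The median of the 25 was -0.30, against 0.01 over all features. Against DMH, the mice without tumors had 3 that rose, Ugdh (1.04), Osgin1 (0.86), a stress-induced growth inhibitor, and Esd (0.55), and 2 that fell, Gsta4 (-2.15), a transferase for lipid aldehydes, and Idh1 (-1.22), which makes cytosolic NADPH, which at 20% is below the 30.5% of all features. Mice with tumors had 0 called against DMH, with 7 at an unadjusted p under 0.05, against 29.9% of all features.

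Among 18 measured genes of glutathione synthesis and use, Cth and Cbs, which turn homocysteine into cysteine, fell with tumors against without by 1.34 ± 0.23 and by 1.21 ± 0.28 on the log2 scale (limma adjusted p = 0.0158 and 0.0326). Without tumors, Slc7a9, a cystine carrier subunit, rose against DMH by 1.12 and Gpx7 fell by 1.37. Of 14 genes of the thioredoxin system and methionine repair, Txnip, which binds and blocks thioredoxin, rose without tumors against DMH by 1.08 ± 0.18 (0.00513), opposite to Txn1, and fell with tumors against without by 0.84 ± 0.18 (0.0243). Msrb1, a methionine sulfoxide reductase, fell by 1.12 ± 0.16 (0.0044) and rose by 0.76 ± 0.18 (0.038) in the same comparisons. Of 9 measured genes of NADPH supply, Idh1 was the one called, without tumors against DMH, which is 11.1% against 30.5% of all features, and 8 of the 9 changes there were negative, against 46.3% of all features. Of 11 iron genes, Hamp, the iron hormone hepcidin, fell without tumors by 2.00 ± 0.56 (0.029) and Hpx, the heme carrier hemopexin, rose with tumors by 1.09 ± 0.24 (0.0439), both against DMH.

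Among genes for enzymes that make oxidants, Cybb and Cyba, which encode the membrane subunits of the phagocyte NADPH oxidase, rose with tumors against without, by 2.61 ± 0.49 and by 0.66 ± 0.18 on the log2 scale (limma adjusted p = 0.0199 and 0.0463). Noxa1, an activator of the epithelial oxidase, changed by -0.84 ± 0.22 in that comparison (0.0421). Cybb and Cyba fell without tumors against DMH, by 2.00 and by 0.89 (0.0192 and 0.00972), and for Cybb 2 of the 3 arrays without tumors were well above background. Neutrophil genes moved alongside. All 5 measured neutrophil genes fell without tumors against DMH, against 13.8% of all features. With tumors against without, 4 of the 5 rose, against 6.99% of all features. Their summed log2 level ran from -0.81 to 2.53 with tumors, -2.98 to -1.61 without tumors and 1.87 to 1.98 in DMH. Without tumors S100a8 and Ltf were well above background on 0 of 3 arrays and Csf3r on 2. The changes and the summed level of that group thus include values near background. In whole mucosa fewer cells of a type and less RNA per cell cannot be told apart, and the part of neutrophils in these results was not tested.

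Markers checked the tissue label, and all 12 epithelial genes were well above background on all 9 arrays. Their summed log2 level ran from 9.05 to 9.63 with tumors, 9.54 to 9.79 without tumors and 10.11 to 10.33 in DMH, and 4 and 5 of the 12 fell with and without tumors against DMH, while Slc26a3 and Aqp8 rose without tumors. The shares of all features against DMH were 2.26% lower and 3.44% higher with tumors, and 13.8% lower and 16.6% higher without tumors. They stand beside the goblet and smooth muscle counts below too. The summed level of 7 goblet cell genes ran from 7.75 to 9.74 with tumors, 8.81 to 9.24 without tumors and 10.49 to 10.63 in DMH, and 4 of 7 fell in each butyrate group. That of 7 smooth muscle genes ran from 8.76 to 9.76, 8.57 to 9.70 and 7.78 to 8.56 in the same order, with 0 called with tumors and 3 higher without tumors. For 6 measured macrophage genes the sums were 4.91 to 5.34, 4.46 to 4.88 and 4.93 to 4.97, and for 8 lymphocyte genes 5.16 to 6.05, 3.48 to 4.45 and 5.96 to 6.08. The lymphocyte sum and median differ in sign. The median log2 change of the 8 was 1.33 with tumors and 0.11 without tumors against DMH, while Jchain, the joining chain of antibodies, fell by 2.83 without tumors. For 4 erythrocyte genes they were 1.19 to 1.85, 0.43 to 3.76 and 3.16 to 3.38, and for 5 adipocyte genes -0.07 to 2.22, 2.23 to 5.49 and 4.30 to 4.47. The epithelial and goblet sums were thus below DMH on all 6 butyrate arrays, as were Tkt, Txn1, Gclm and Fth1, and their part in those 4 results was not tested. Cxcr2, a neutrophil receptor, was well above background on none of the arrays, and Camp and Lep on 1 each.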

How the data were processed

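Total RNA of 9 mucosa samples was measured on 1-colour (Cy3) Agilent arrays of 43379 spots, 1639 of them controls, which were left out, and 41174 probes. Per the file headers, the deposited intensity (gProcessedSignal) is background-subtracted and spatially detrended within the array, with no scaling between arrays, and the median spot and background intensity columns are raw. Per the submitters' processing notes the scanner software was Agilent Feature Extraction 10.5.1.1. The authors' deposited value table holds log2 values that equal log2 of that intensity minus 1 constant per array (SD of the difference at most 0.00807). What that constant is stays unknown, and its columns have medians of 2.71 to 3.20.

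Outlier spots, as marked by the scanner software, were dropped, and each probe is the mean of its remaining spots. Values were log2 intensity minus the 75th percentile of the array. Probes well above background on at least 3 arrays (28529) with at least 2 values per group (28521) were kept. RefSeq accessions in the files gave 26933 probes 1 symbol, and the other 14241 stayed unnamed. In the DMH files 4725 probes carry another accession, so the version of the butyrate files was used for all, which is the same for the probes of the 33 genes. The brightest probe stood for its gene. No genome was used here, so the exons that the probes bind are not given, and gene positions are those of the RefSeq table (GRCm38.p6).

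limma 3.58.1 (lmFit, eBayes, 2-sided) in R 4.3.3 fitted the whole table, with 2 groups for butyrate against DMH and 3 groups for the other comparisons. P-values were adjusted over all features and called under 0.05. statmod 1.5.0 served the random block, and matplotlib 3.10.9, numpy 2.4.6 and pandas 2.3.3 under Python 3.11.15 the tables and plots. The fit was tested on simulated data. Named with their tests are the called genes plus always Nfe2l2, Keap1, Nqo1, Hmox1, Gpx2 and Prdx1, up to 5 called genes of each other list, and probes that disagree. Other members have values as examples, chosen after their values were seen. The 33 genes, the lists and the tests were chosen with earlier results of these data known. Alternatives were other scalings, normexp (offset 50), the authors' values, other filters, probe rules, priors, weights, groups and blocks, and leaving out arrays. Results of some genes of the other lists are not reported here.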

Additional observations from a re-analysis of the deposited data

Results flagged for a closer look

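For 3 genes the change against DMH differed between the butyrate groups by the test of the difference itself, mice with tumors minus mice without tumors (limma). The difference in log2 change was -1.34 ± 0.31 for Nqo1 (adjusted p = 0.0321), -1.15 ± 0.32 for Gclc (0.048) and -0.97 ± 0.25 for Glrx (0.0417), with all 3 arrays with tumors below all 3 without tumors for each. No gene of the 33 had an array that stood apart by Dixon's test among the 6 butyrate arrays, and groups of 3 arrays were not tested for this. The test pools both groups, so it can miss an array that lies far from its own group. For Hmox1 without tumors, array 1 was at 2.27 against -0.07 and 0.01.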

How the results depend on the processing

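In the report 1, 5, 1 and 3 of the 33 genes were called, in the order all butyrate arrays, mice without tumors and mice with tumors against DMH, and mice with tumors against without. In that order the counts were 0, 1, 0 and 0 without scaling, which moved the median of all features to -0.76, -1.0, -0.53 and 0.48, and 1, 3, 1 and 2 with quantile normalization. They were 1, 7, 2 and 6 with normexp and 2, 4, 4 and 11 with the authors' values, whose medians over all features were 0.08, 0.25, -0.11 and -0.36. Without tumors against DMH, 1 of the 3 genes with quantile normalization and 5 of the 7 with normexp were higher. So were 2 of the 4 with the authors' values. Counts were 1, 2, 0 and 0 without a filter on dim probes, 0, 4, 0 and 3 with probes averaged, 1, 7, 1 and 5 with a trended and robust prior, and 12, 16, 5 and 8 with array weights. Of the 7 with that prior 2 were higher. With array weights 2 of the 12, 6 of the 16 and 1 of the 8 were higher. All butyrate arrays gave 4 with 3 groups in the fit, and the other comparisons gave 6, 0 and 0 with only the compared groups in it, where no feature at all was called between the butyrate groups. Of those 6 genes 1 was higher. The replicate block gave 1, 6, 0 and 5, with 2 of the 6 higher. Deviations from the group means had correlations from -0.01 to 0.26 between same-numbered samples and from -0.24 to 0.23 between others. With 3 arrays a group these values cannot decide whether the numbers pair samples. With slide as a random block the counts were 0 in all 4, and with slide as a fixed block, or on slide 1 alone, 0 between the butyrate groups. Without slide 1, all butyrate arrays and mice with tumors gave 6 each against DMH, 1 of them higher. With the DMH arrays of 1 slide averaged the counts were 0, 1, 0 and 0. Leaving out each array gave 0 to 2, 1 to 8, 0 to 4 and 0 to 8. The other settings stayed within 1.5 times, and the causes were not tested. All 33 genes were well above background on every array, and the part of background in these counts was not tested.

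Signs turned as follows, none of them in a called change. Gpx2 with tumors against DMH was 0.0932 with quantile normalization and 0.0786 with normexp. Without scaling, Nfe2l2 was -0.80 for all butyrate arrays and -0.77 without tumors, Nqo1 was -0.78 without tumors, and Prdx1 was 0.30 with tumors against without. With the authors' values Keap1 was 0.0176 without tumors and Hmox1 -0.0863 with tumors against without. With probes averaged Nfe2l2 was -0.39 for all butyrate arrays and -0.32 without tumors, with array weights Nqo1 was -0.0288 without tumors, and without slide 1 Nfe2l2 was -0.17 for all butyrate arrays. Leaving out each array, the log2 change ran from -0.0722 to 0.12 for Nfe2l2 (all butyrate arrays), -0.0385 to 0.63 for Nqo1, -0.45 to 0.15 for Keap1 and -1.13 to 0.0417 for Hmox1 (without tumors), -0.48 to 0.10 for Hmox1 and -0.27 to 0.0786 for Gpx2 (with tumors), and -0.20 to 0.97 for Hmox1 (with tumors against without).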
